A study of Homo sapiens with 18 samples.

Results

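The DNA replication and G1/S genes described here are 49 genes chosen by name, among them the MCM helicase, the origin licensing and helicase-loading factors, the replicative polymerases, the sliding clamp and its loaders, enzymes of nucleotide supply, E cyclins and E2F factors. All 49 were found among the 44016 features of the count table, and all 49 passed the filter on low counts with 22382 genes tested in all. Poly(A) mRNA came from A549, an established line of human lung adenocarcinoma cells, in 6 groups of 3 libraries. The groups were wild type (WT) untreated, WT after 2 h of 100 µM H2O2 (hydrogen peroxide), an untreated stable knockdown (KD) of S100A16, that same KD after the same peroxide treatment, and untreated stable KDs of hnRNPM and of MagoHB. S100A16 is a calcium-binding S100 protein, hnRNPM is an RNA-binding regulator of splicing, and MagoHB belongs to the exon junction complex. The controls are wild-type cells, and no vector-only line is among the groups. The sources used here do not give how the KDs were made or whether each is 1 clone or a pool. The labels call the 3 libraries of a group biological replicates without naming separate cultures, so p-values measure only the spread between these libraries.

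Before a cell copies its DNA, the origin recognition complex, CDC6 and CDT1 load the ring-shaped MCM helicase onto origins in G1. At the start of S phase, cyclin E with its kinase, MCM10, CDC45 and the GINS complex switch the helicase on, and polymerases, PCNA, RFC and RPA then carry out synthesis. Many of these genes are transcribed through E2F factors that are held back by RB-family pocket proteins until late G1, so their mRNAs are widely read as marks of proliferating cells. In bulk RNA, fewer cells in S phase and less of an mRNA in each cell cannot be told apart.

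Library totals ran from 36612997 to 51406431 counts. In the KD lines the targeted mRNA was below WT: S100A16 was at 7.11% of WT, HNRNPM at 20.8% and MAGOHB at 34.8%. By edgeR's quasi-likelihood test the targets also fell in other KDs: S100A16 in the MagoHB KD (51.2% of WT, adjusted p = 2.79e-07), MAGOHB in the KDs of hnRNPM (44.4%, adjusted p = 3.68e-06) and S100A16 (65.0%, adjusted p = 0.00122), and HNRNPM in those of S100A16 (67.5%, adjusted p = 0.000912) and MagoHB (80.4%, adjusted p = 0.0459). MAGOHB was at 61.5, 37.8 and 56.9 CPM (counts scaled to library size by TMM) in its own KD and 76.8, 67.9 and 54.5 in the hnRNPM KD, groups that overlap and whose difference did not pass the test (adjusted p = 0.0505). Of 10 markers listed for A549 epithelium 8 were at a mean of at least 1 RPKM (counts scaled by gene length and library total), led by AKR1B10 (1140), KRT8 (653) and KRT18 (540), while KRT19 (0.378) and CEACAM6 (0.193) were below it. Their summed level differed between groups, at 2344 to 2573 RPKM in WT, 2915 to 3056 in the untreated S100A16 KD, 1495 to 1606 in the hnRNPM KD and 1566 to 1805 in the MagoHB KD. Of 8 alveolar type II markers, SFTPA1, SFTPA2, SFTPB, SFTPC, SFTPD and NKX2-1 were each under 0.05 RPKM, LAMP3 was at 0.21 and ABCA3 at 3.14. Their sum was 2.24 to 2.42 RPKM in WT, 4.35 to 5.2 in the untreated S100A16 KD, 4.21 to 4.92 in the hnRNPM KD and 1.82 to 3.43 in the MagoHB KD. Of 8 fibroblast markers 3 were at a mean of at least 1 RPKM: PDGFRA (3.28), COL1A1 (2.65) and COL3A1 (1.56). Those 8 summed to 8.6 to 11.7 RPKM in WT and 6.3 to 7.2 in the untreated S100A16 KD. The sum was 8.7 to 10.2 RPKM in the hnRNPM KD and 6.2 to 8.8 in the MagoHB KD. Defining markers of leukocytes (PTPRC, 0.0326 RPKM) and endothelium (PECAM1, 0.0342 RPKM) were near 0. The summed level of 8 leukocyte markers, nearly all of it CD68 (mean 52.7 RPKM), was 39.6 to 43.2 RPKM in WT, 64.3 to 68.9 in the untreated S100A16 KD, 39.9 to 72.9 in the hnRNPM KD and 36.4 to 69.99 in the MagoHB KD. The part of these sums in the results was not tested. In all, 3 libraries stood apart from the others of their group: S100A16 KD 1, hnRNPM KD 3 and MagoHB KD 2. A chi-square per degree of freedom over genes was 30 to 64.9 for pairs with these libraries and 3.09 to 5.59 for all other pairs of a group. HnRNPM KD 3 and MagoHB KD 2 held the lowest value of their group for 49 of 49 members. Counts over the 49 members and over the related gene lists are given below with and without these 3 libraries, while the counts by role use all libraries unless stated.

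Most of the 49 genes were lower in the S100A16 KD and in the hnRNPM KD than in WT, and fewer in the MagoHB KD. In the S100A16 KD 45 of 49 fell and 1 rose, against 24.8% of all tested genes called lower and 27.6% called higher, with a call meaning an adjusted p under 0.05 in edgeR's quasi-likelihood F test. The median log2 fold change of the 49 was -0.93, beside 0.06 over all genes. In the hnRNPM KD 40 fell and 1 rose, against 23.8% and 25.4% of all genes, with a median of -0.70 beside 0.02. In the MagoHB KD 19 fell, against 22.3% of all genes, and the other 30 did not pass the test, with a median of -0.31 beside 0.04. These 3 comparisons share the WT libraries. Counting falls of at least 1.5-fold, 44 members passed in the S100A16 KD (11.6% of all genes), 29 passed in the hnRNPM KD (12.1%) and 11 passed in the MagoHB KD (9.02%). No rise reached that size in these KDs, beside 17.8%, 15.3% and 14.0% of all genes. The shares of all genes called lower and higher in each KD also stand beside the counts by role below.

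**Figure D1:**
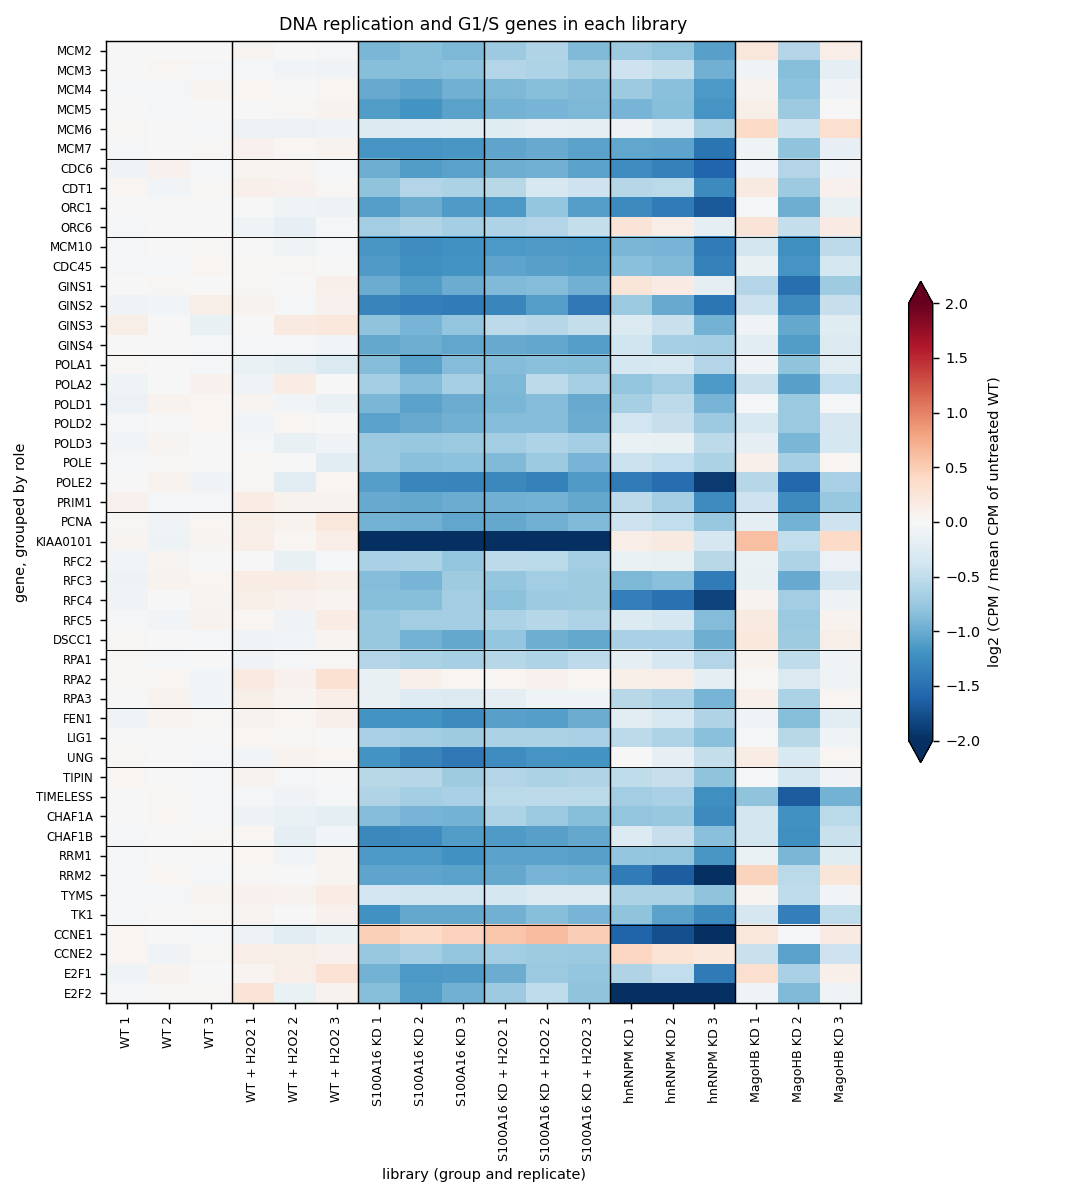
Each cell is 1 gene (rows, grouped by role) in 1 library (columns, grouped by condition), coloured by the log2 ratio of its CPM to the mean of the untreated WT libraries; the colour scale stops at -2 and 2. The 6 S100A16 KD libraries look alike, whereas hnRNPM KD 3 and MagoHB KD 2 show lower values than the other libraries of their group.

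The single libraries show how evenly each KD's change was spread. The median log2 ratio of the 49 genes to the WT mean was -0.87, -0.96 and -0.95 in the 3 untreated S100A16 KD libraries, with 48, 47 and 47 of the genes below the WT mean. In the hnRNPM KD it was -0.57, -0.62 and -0.96, and in the MagoHB KD it was -0.07, -0.80 and -0.11. MagoHB KD 2 thus lay near the S100A16 KD libraries, and the other MagoHB KD libraries lay near WT. MKI67, a proliferation marker, followed the same order in the MagoHB KD at 1428, 718.9 and 1352 CPM, beside 1820 to 1833 CPM in WT. It fell in all 3 KDs: the S100A16 KD had 40.0% of WT (adjusted p = 3.61e-05), the hnRNPM KD 56.5% (adjusted p = 0.00194) and the MagoHB KD 63.9% (adjusted p = 0.0103). CDKN1A, which encodes the kinase inhibitor p21, was at 31.2, 57.9 and 29.9 CPM in those libraries and at 27.3 to 28.8 CPM in WT. It rose in the S100A16 KD (47.6 to 55.1 CPM, adjusted p = 0.00952), and was at 14.7, 16.1 and 29.5 CPM in the hnRNPM KD, where it was not called (adjusted p = 0.165), as it was not in the MagoHB KD (adjusted p = 0.129). The part of MKI67 or CDKN1A in the results was not tested. Without MagoHB KD 2, 16 members fell (20.2% of all genes) and KIAA0101, MCM6 and ORC6 rose (18.9% of all genes), and the median was -0.09. Without all 3 libraries that stood apart, 47 fell in the S100A16 KD (27.2% of all genes), 43 fell in the hnRNPM KD (25.2%) and 21 fell in the MagoHB KD (22.7%), whose median was then -0.08. In that fit 4 rose in the hnRNPM KD (CCNE2, GINS1, ORC6 and KIAA0101) and 8 rose in the MagoHB KD (KIAA0101, MCM6, RRM2, ORC6, MCM2, CCNE1, E2F1 and DSCC1), beside 25.7% and 22.0% of all genes. By role, the MagoHB KD counts then included 2 falls and 2 rises among the 6 MCM genes, 2 falls and 2 rises in the clamp group of 7, and 1 fall and 2 rises among the 4 G1/S regulators. MCM6 then fell in the S100A16 and hnRNPM KDs.

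**Figure D2:**
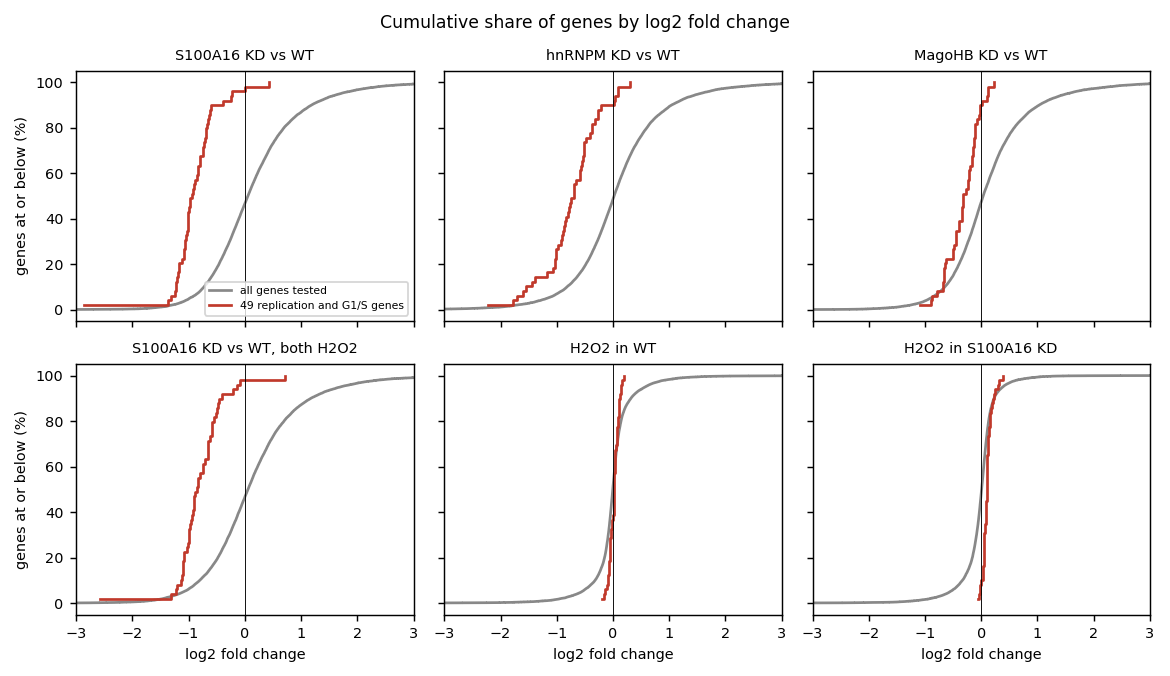
The curves give the percent of genes (vertical axis) at or below each log2 fold change (horizontal axis) for the 49 genes in red and all 22382 tested genes in grey, in 6 comparisons. The red curve lies left of the grey one in the 4 comparisons of a KD with WT, at a median of -0.93 in the S100A16 KD, and near 0 in both peroxide comparisons.

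Promoter sequence was taken from RefSeq (GRCh38.p14) for the 41 members that matched its promoter table; MCM4, MCM5, GINS4, POLD3, RPA2, RPA3, CCNE2 and DSCC1 had no entry. The 4 promoters printed here belong to a gene that fell in both the S100A16 and hnRNPM KDs (MCM7), to the MCM gene with no call against WT (MCM6), to the gene with the largest fall (KIAA0101, entered as PCLAF) and to the gene that rose in the S100A16 KD (CCNE1). Each runs 5′ to 3′ on the gene's strand over the 250 bases before the annotated start, with capitals for matches to the E2F motif on either strand, whose 4 searched forms were TTCCCGC and also TTCGCGC and also TTGGCGC and also TTGCCGC.
MCM7, chr7:100101398-100101647, minus strand: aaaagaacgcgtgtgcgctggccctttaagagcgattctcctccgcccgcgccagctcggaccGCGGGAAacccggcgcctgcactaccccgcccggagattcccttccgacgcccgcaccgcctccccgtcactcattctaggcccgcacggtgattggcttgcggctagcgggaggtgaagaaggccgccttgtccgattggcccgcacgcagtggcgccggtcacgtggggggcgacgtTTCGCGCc
MCM6, chr2:135876444-135876693, minus strand: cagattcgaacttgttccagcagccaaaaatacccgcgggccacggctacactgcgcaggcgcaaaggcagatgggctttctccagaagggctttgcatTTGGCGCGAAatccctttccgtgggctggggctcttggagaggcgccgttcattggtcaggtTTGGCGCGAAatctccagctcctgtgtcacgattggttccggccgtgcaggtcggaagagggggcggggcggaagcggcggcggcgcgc
KIAA0101, chr15:64387688-64387937, minus strand: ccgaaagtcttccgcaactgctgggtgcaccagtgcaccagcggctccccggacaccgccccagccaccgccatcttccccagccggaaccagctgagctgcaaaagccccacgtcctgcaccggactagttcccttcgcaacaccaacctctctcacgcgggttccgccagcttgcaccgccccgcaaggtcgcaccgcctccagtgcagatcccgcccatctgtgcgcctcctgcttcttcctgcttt
CCNE1, chr19:29811741-29811990, plus strand: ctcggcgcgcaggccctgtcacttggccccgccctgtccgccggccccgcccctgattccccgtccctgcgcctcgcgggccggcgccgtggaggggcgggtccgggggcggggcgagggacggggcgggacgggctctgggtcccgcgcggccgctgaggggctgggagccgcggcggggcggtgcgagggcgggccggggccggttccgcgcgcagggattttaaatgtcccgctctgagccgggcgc
MCM7 held 2 matches and MCM6 held 4, which overlap in pairs because the motif read on opposite strands shares bases. KIAA0101 and CCNE1 held 0 in this window.

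Among the 41 promoters, 21 (51.2%) held at least 1 E2F match, beside 11.0% of 27305 RefSeq promoters and 16.5% of the 11710 that belong to tested genes. The CCAAT box, searched on both strands, was in 23 of 41 (56.1%), beside 33.0% and 34.5%. The cell cycle homology region, searched as TTTGAA and TTCGAA, was in 2 of 41 (4.9%; MCM6 and RRM1), beside 14.6% and 10.1%. Member promoters were richer in G and C (median 68%) than all promoters (58%) and those of tested genes (64.4%), which bears on matches to GC-rich motifs. The 21 genes with an E2F match had a median log2 fold change of -0.91 in the S100A16 KD and the 20 without one -1.02. The same medians were -0.79 and -0.64 for hnRNPM and -0.32 and -0.31 for MagoHB.

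The MCM helicase genes ran in untreated WT from 14.2 RPKM (MCM5) to 98.0 RPKM (MCM3, the highest of the 49). Of the 6 MCM genes, 5 fell in the S100A16 KD, the same 5 fell in the hnRNPM KD, and none was called in the MagoHB KD. MCM7 was at 314, 318 and 326 CPM in WT, at 141, 141 and 143 in the S100A16 KD, at 155, 154 and 117 in the hnRNPM KD and at 301, 183 and 286 in the MagoHB KD. Its S100A16 and hnRNPM KD libraries all lay below all WT libraries and overlapped each other. The log2 fold change was -1.17 ± 0.14 (SE) in both KDs (adjusted p = 3.66e-06 and 4.07e-06), beside -0.32 ± 0.14 for the MagoHB KD (adjusted p = 0.0732). MCM2, MCM3, MCM4 and MCM5 had log2 fold changes from -0.84 to -1.13 in the S100A16 KD and from -0.60 to -0.98 in the hnRNPM KD. Without the 3 libraries that stood apart, MCM7 and these MCM genes were each called lower in the S100A16 KD than in both other KDs. The equal fall of MCM7 in the S100A16 and hnRNPM KDs thus holds for the fit of all libraries.

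MCM6, a subunit of the same ring, was at 117, 116 and 114 CPM in WT, 95.9, 96.7 and 98.0 in the S100A16 KD, 108, 96.8 and 73.0 in the hnRNPM KD and 150.1, 85.5 and 144 in the MagoHB KD. The S100A16 KD values lay below WT without overlap, at a log2 fold change of -0.25 ± 0.17 that did not pass the test (adjusted p = 0.218). The hnRNPM KD gave -0.32 ± 0.17 (adjusted p = 0.131), and the MagoHB KD libraries lay on both sides of WT. With all libraries, MCM6 and RPA2 were the members that fell in none of the 3 untreated KDs.

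Origin licensing genes mark where helicases are loaded: ORC1 and ORC6 belong to the origin recognition complex, CDC6 is the loading ATPase and CDT1 brings in the MCM ring. All 4 fell in the S100A16 KD, 3 fell in the hnRNPM KD, and none was called in the MagoHB KD. CDC6 was at 219.8, 243 and 227 CPM in WT, 117, 106 and 109.5 in the S100A16 KD and 97.2, 89.95 and 76.4 in the hnRNPM KD. None of these groups overlapped, and the direct comparison of the KDs put the hnRNPM KD lower (log2 difference 0.34 of S100A16 KD over hnRNPM KD, adjusted p = 0.017). That call was lost without hnRNPM KD 3 (0.24, adjusted p = 0.104) or S100A16 KD 1 (0.30, adjusted p = 0.0656), and the difference was 0.19 (adjusted p = 0.00206) without the 3 libraries that stood apart. ORC1 fell to 47.4% of WT in the S100A16 KD and to 36.8% in the hnRNPM KD. ORC6 went another way: it fell to 63.3% in the S100A16 KD (adjusted p = 0.00115) and was at 106% in the hnRNPM KD (adjusted p = 0.672), and the KDs differed directly (log2 difference -0.74, adjusted p = 0.000465).

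Genes for helicase activation encode MCM10, CDC45 and the GINS subunits, which join the loaded MCM ring to form the working helicase. All 6 fell in the S100A16 KD, 5 under hnRNPM KD and 5 under MagoHB KD. GINS2 was at 22.0, 22.4 and 24.9 CPM in WT, 9.22, 8.90 and 8.75 in the S100A16 KD, 13.8, 11.4 and 8.48 in the hnRNPM KD and 17.2, 9.50 and 16.8 in the MagoHB KD. Every KD library lay below every WT library, and log2 fold changes were -1.37 ± 0.19, -1.04 ± 0.19 and -0.68 ± 0.19 (adjusted p = 1.91e-05, 0.000266 and 0.00726). MCM10 and CDC45 also fell in all 3 KDs, to 43.4% and 43.9% of WT in the S100A16 KD.

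GINS1, a subunit of the GINS complex, was the member of this group not called in the hnRNPM KD. Its values were 65.1, 66.3 and 65.2 CPM in WT, 33.1, 30.2 and 32.9 in the S100A16 KD, 77.7, 73.4 and 58.1 in the hnRNPM KD and 43.6, 23.0 and 39.9 in the MagoHB KD. The S100A16 and MagoHB KD libraries lay below all WT libraries, and the hnRNPM KD libraries spanned them. GINS1 fell to 48.9% of WT in the S100A16 KD (adjusted p = 0.000129), and the MagoHB KD had 54.0% (adjusted p = 0.000611). It was at 106% in the hnRNPM KD (adjusted p = 0.694), and that KD was higher than the S100A16 KD (log2 difference of S100A16 KD over hnRNPM KD -1.12, adjusted p = 6.17e-05) and than the MagoHB KD (0.98, adjusted p = 0.000247).

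The polymerase group holds the primase subunit PRIM1, subunits of the priming polymerase alpha (POLA1, POLA2), of the lagging-strand polymerase delta (POLD1, POLD2, POLD3) and of the leading-strand polymerase epsilon (POLE, POLE2). All 8 fell in the S100A16 KD, 7 fell in the hnRNPM KD (POLD3, at 83.4% of WT, was not called) and 6 fell in the MagoHB KD (POLD1 and POLE, at 84.6% and 91.1%, were not called). POLE2 had the largest fall of the group in all 3 KDs. It was at 11.7, 12.3 and 11.2 CPM in WT, 5.47, 4.73 and 4.69 in the S100A16 KD, 4.47, 4.08 and 3.12 in the hnRNPM KD and 7.89, 3.95 and 7.51 in the MagoHB KD. No KD library reached the lowest WT library, and the log2 fold changes were -1.24 ± 0.19, -1.59 ± 0.19 and -0.87 ± 0.18 (adjusted p = 1.57e-05, 1.23e-06 and 0.000647).

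PRIM1, which makes the RNA primers, stood at 24.6, 22.5 and 22.5 CPM in WT, 11.5, 11.4 and 11.6 in the S100A16 KD, 16.1, 14.4 and 9.66 in the hnRNPM KD and 17.5, 9.57 and 13.8 in the MagoHB KD. It fell in each KD without overlap with WT, to 49.7%, 57.7% and 58.4%. With all libraries the direct comparisons between KDs did not pass the test (adjusted p from 0.314 to 0.954). Without the 3 libraries that stood apart, PRIM1 was called lower in the S100A16 KD than in both other KDs.

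**Figure D3:**
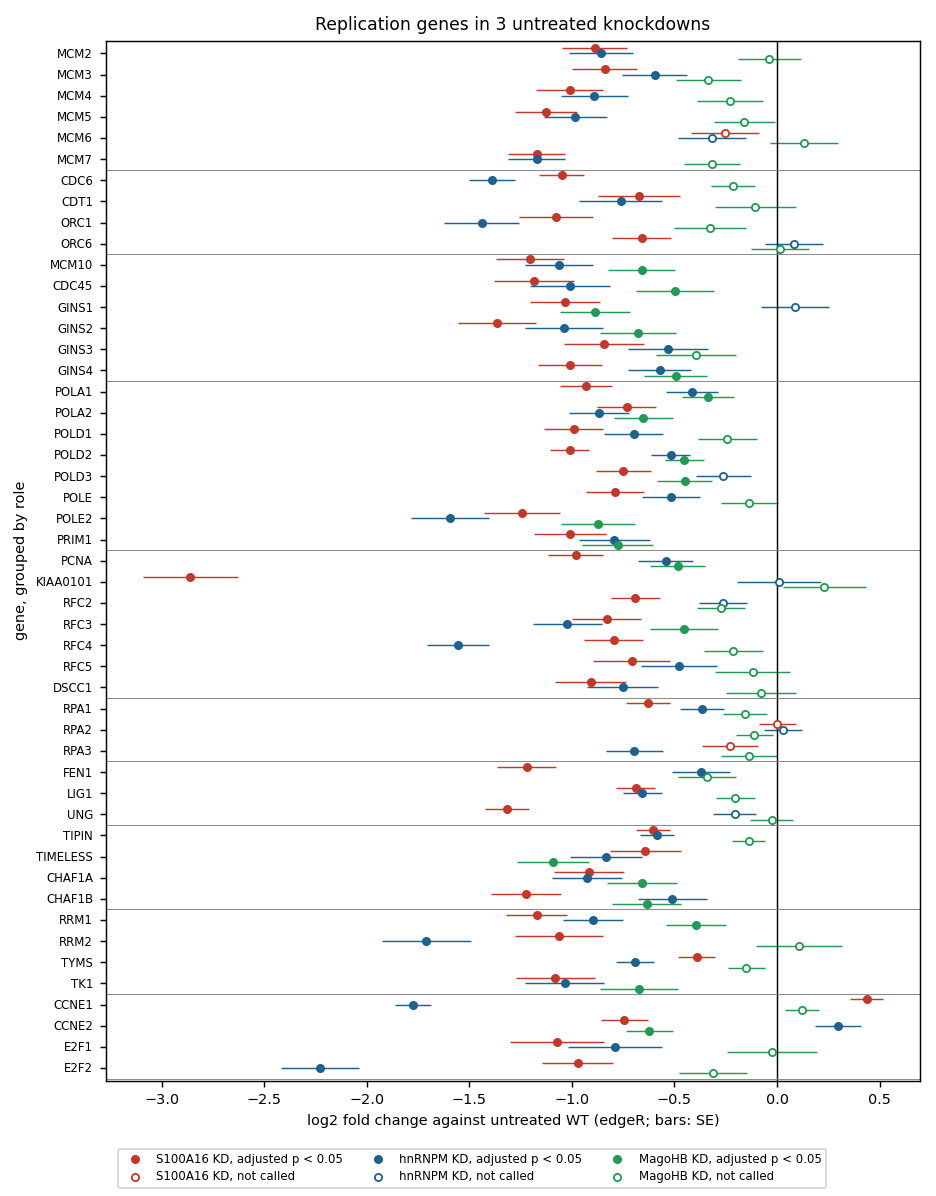
Log2 fold change of each gene against untreated WT (horizontal axis) with its standard error, in the S100A16 KD (red), hnRNPM KD (blue) and MagoHB KD (green), with filled points for an adjusted p under 0.05; grey lines part the roles. KIAA0101 stands far left at -2.86 in red alone, and CCNE1 lies at 0.44 in red and -1.77 in blue.

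PCNA is the ring that tethers polymerases to DNA, RFC2 to RFC5 and DSCC1 belong to complexes that load it, and KIAA0101 (PCLAF, also called PAF15) encodes a small PCNA-binding protein. All 7 genes of this group fell in the S100A16 KD, 5 fell in the hnRNPM KD and 2 (PCNA and RFC3) fell in the MagoHB KD. The 2 of 7 lies near the 22.3% of all genes called lower in the MagoHB KD. PCNA was at 132, 123 and 133 CPM in WT, 67.2, 66.6 and 63.4 in the S100A16 KD, 97.9, 92.3 and 76.9 in the hnRNPM KD and 114, 67.5 and 97.2 in the MagoHB KD. It fell in all 3 KDs, to 50.7%, 68.6% and 71.5% of WT, and was lower in the S100A16 KD than in either other KD (adjusted p = 0.0127 and 0.00627). The first of these calls was lost without hnRNPM KD 1 (adjusted p = 0.0551), and the second difference went from -0.50 to -0.32 without MagoHB KD 1. RFC4 followed another order at 32.7, 34.4 and 35.8 CPM in WT, 18.99, 18.96 and 21.2 in the S100A16 KD, 13.3, 12.2 and 9.49 in the hnRNPM KD and 35.9, 21.1 and 32.0 in the MagoHB KD. The hnRNPM KD had the lowest RFC4, 34.0% of WT (log2 fold change -1.56 ± 0.15, adjusted p = 1.87e-07), below the S100A16 KD by direct test (adjusted p = 0.000428).

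KIAA0101 had the largest fall of any member in the S100A16 KD. Its values were 36.3, 32.5 and 36.3 CPM in WT, 4.52, 4.83 and 5.09 in the S100A16 KD, 38.5, 39.9 and 27.6 in the hnRNPM KD and 53.0, 24.98 and 45.5 in the MagoHB KD. All S100A16 KD libraries lay far below every other library, and the hnRNPM and MagoHB KD libraries overlapped WT. The log2 fold change in the S100A16 KD was -2.86 ± 0.23 (13.8% of WT, adjusted p = 1.53e-07), beside 0.01 ± 0.20 and 0.23 ± 0.20 in the hnRNPM and MagoHB KDs (adjusted p = 0.974 and 0.387). The direct differences of the S100A16 KD from these KDs were -2.87 and -3.09 (adjusted p = 1.21e-07 and 6.23e-08). KIAA0101 (GRCh38 chr15:64364311-64387687) shares 28.8% of its exon bases with the feature CTD-2116N17.1 on the same strand, so reads of that stretch may be split between them. CTD-2116N17.1 was itself at 19.5% of WT in the S100A16 KD (adjusted p = 1.52e-07).

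RPA1, RPA2 and RPA3 form the trimer that coats single-stranded DNA. Their WT levels were close to each other, from 12.6 to 13.0 RPKM. RPA1 fell in the S100A16 KD (64.7% of WT, adjusted p = 6.42e-05) and the hnRNPM KD (77.6%, adjusted p = 0.00776). With all libraries, RPA3 fell in the hnRNPM KD alone by call, from 44.5, 46.6 and 42.8 CPM in WT to 30.2, 29.0 and 23.4. It stood at 40.1, 37.4 and 36.5 in the S100A16 KD. Without the 3 libraries that stood apart, or without MagoHB KD 2 alone, RPA1 and RPA3 both fell in the S100A16 KD. The direct comparison put the S100A16 KD higher than the hnRNPM KD for RPA3 (log2 difference 0.47, adjusted p = 0.0109), a call lost without hnRNPM KD 3 (0.36, adjusted p = 0.0703), with a difference of 0.30 (adjusted p = 4.03e-05) without the 3 libraries that stood apart. RPA2 had values of 29.1, 29.5 and 27.5 CPM in WT, 25.7, 30.8 and 29.5 in the S100A16 KD, 31.1, 31.6 and 25.1 in the hnRNPM KD and 29.1, 23.6 and 27.0 in the MagoHB KD, and each KD overlapped WT.

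FEN1 trims and LIG1 seals Okazaki fragments, and UNG removes uracil from DNA. All 3 fell in the S100A16 KD, FEN1 and LIG1 fell in the hnRNPM KD and none was called in the MagoHB KD. UNG was at 42.7, 41.9 and 41.4 CPM in WT, 18.4, 16.6 and 15.7 in the S100A16 KD, 41.6, 37.5 and 30.2 in the hnRNPM KD and 46.7, 34.0 and 43.2 in the MagoHB KD. The S100A16 KD libraries lay below all others, while the libraries of the other KDs overlapped WT. UNG fell to 40.2% of WT in the S100A16 KD (log2 fold change -1.31 ± 0.11, adjusted p = 3.33e-09) and was lower there than in the KDs of hnRNPM (-1.11, adjusted p = 2.9e-08) and MagoHB (-1.29, adjusted p = 3.37e-09). FEN1 fell to 42.9% in the S100A16 KD and 77.4% in the hnRNPM KD, and the KDs differed directly (adjusted p = 0.000135).

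TIMELESS and TIPIN protect stalled forks, and CHAF1A and CHAF1B encode subunits of the chromatin assembly factor that places histones behind the fork. All 4 fell in the S100A16 KD and in the hnRNPM KD, and 3 fell in the MagoHB KD (TIPIN, at 90.9% of WT, was not called). TIMELESS had the largest fall of all members in the MagoHB KD. It was at 371, 377 and 364 CPM in WT, 244, 232 and 237 in the S100A16 KD, 229, 236 and 159 in the hnRNPM KD and 213, 117 and 193 in the MagoHB KD. Every KD library lay below WT, and the MagoHB KD libraries lay below those of the S100A16 KD. The log2 fold changes were -0.64 ± 0.17, -0.84 ± 0.17 and -1.09 ± 0.18 (adjusted p = 0.00666, 0.00119 and 0.00017). The difference between the S100A16 and MagoHB KDs (0.45, adjusted p = 0.0497) just passed the threshold and was lost in 8 alternatives, among them the fit without MagoHB KD 2, where it was 0.23.

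Nucleotide supply is served by ribonucleotide reductase (RRM1, RRM2), thymidylate synthase (TYMS) and thymidine kinase (TK1), and their mRNAs were at 29.4 to 94.5 RPKM in WT. All 4 fell in the S100A16 and hnRNPM KDs, and RRM1 and TK1 fell in the MagoHB KD. RRM2 was at 255, 268 and 255 CPM in WT, 125, 124 and 124 in the S100A16 KD, 98.5, 83.1 and 56.1 in the hnRNPM KD and 353, 178 and 307 in the MagoHB KD. The S100A16 and hnRNPM KD values did not overlap with WT or with each other, and the MagoHB KD values fell on both sides of WT. The log2 fold changes were -1.06 ± 0.21, -1.71 ± 0.22 and 0.11 ± 0.21 (adjusted p = 0.00087, 1.95e-05 and 0.718). RRM1, the partner subunit, fell to 44.4%, 53.6% and 76.0% of WT. TYMS fell least among these in the S100A16 KD, to 76.3%, and fell to 61.9% in the hnRNPM KD; 26.2% of its exon bases are shared with features on the opposite strand (ENOSF1 and TYMSOS).

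The regulators of the G1/S transition were the most divided group, and they were present at low levels in WT, from 1.53 RPKM (E2F2) to 6.85 RPKM (CCNE1). CCNE1 and CCNE2 encode the E cyclins, which drive entry into S phase with their kinase, and E2F1 and E2F2 encode activating E2F factors. CCNE1 was at 19.5, 19.01 and 18.7 CPM in WT, 26.4, 24.9 and 26.2 in the S100A16 KD, 6.30, 5.63 and 4.81 in the hnRNPM KD and 22.2, 18.8 and 21.3 in the MagoHB KD. The S100A16 KD libraries lay above all WT libraries, the hnRNPM KD libraries lay below them, and the MagoHB KD libraries overlapped them. CCNE1 rose to 135% of WT in the S100A16 KD (log2 fold change 0.44 ± 0.08, adjusted p = 9.85e-05), the only rise called there among the 49, and fell to 29.2% in the hnRNPM KD (-1.77 ± 0.09, adjusted p = 4.62e-13). The difference between these KDs was 2.21 (adjusted p = 6.99e-15).

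CCNE2 moved the other way in both of those KDs. It was at 17.4, 16.2 and 17.2 CPM in WT, 10.1, 10.5 and 9.77 in the S100A16 KD, 22.5, 20.4 and 19.6 in the hnRNPM KD and 12.4, 8.03 and 12.7 in the MagoHB KD. The S100A16 and MagoHB KD libraries lay below WT and the hnRNPM KD libraries above it. CCNE2 fell to 59.7% in the S100A16 KD (adjusted p = 1.21e-05), and the MagoHB KD had 64.9% (adjusted p = 0.000129). It rose to 123% in the hnRNPM KD (log2 fold change 0.30 ± 0.11, adjusted p = 0.0323), a call that was lost in 5 of 6 fits that left out 1 library, at 0.23 to 0.31 without WT 1, 2 or 3 or hnRNPM KD 1 or 2. The direct difference of the S100A16 KD from the hnRNPM KD was -1.04 (adjusted p = 1e-07), opposite in sign to that of CCNE1. INTS8 on the opposite strand shares 37.0% of the exon bases of CCNE2, and INTS8 was at 67.7% of WT in the S100A16 KD and 112% in the hnRNPM KD.

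E2F2 had the largest fall of any member in the hnRNPM KD. Its values were 8.86, 9.22 and 9.26 CPM in WT, 5.04, 4.21 and 4.69 in the S100A16 KD, 2.15, 2.196 and 1.52 in the hnRNPM KD and 8.60, 4.92 and 8.56 in the MagoHB KD. All 3 KDs lay below WT in every library, with MagoHB KD 1 and 3 close to it. The log2 fold changes were -2.23 ± 0.19 in the hnRNPM KD (21.3% of WT, adjusted p = 4.62e-09), -0.97 ± 0.17 in the S100A16 KD (adjusted p = 6.99e-05) and, for the MagoHB KD, -0.31 ± 0.17 (adjusted p = 0.132). E2F1 fell to 47.5% of WT in the S100A16 KD and 57.8% in the hnRNPM KD. With all libraries those KDs did not differ by direct test (log2 difference -0.28, adjusted p = 0.345). That result rested on hnRNPM KD 3, as E2F1 was at 10.02, 10.78 and 5.67 CPM in the hnRNPM KD. Without hnRNPM KD 3, or without the 3 libraries that stood apart, E2F1 was called lower in the S100A16 KD than in the hnRNPM KD.

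**Figure D4:**
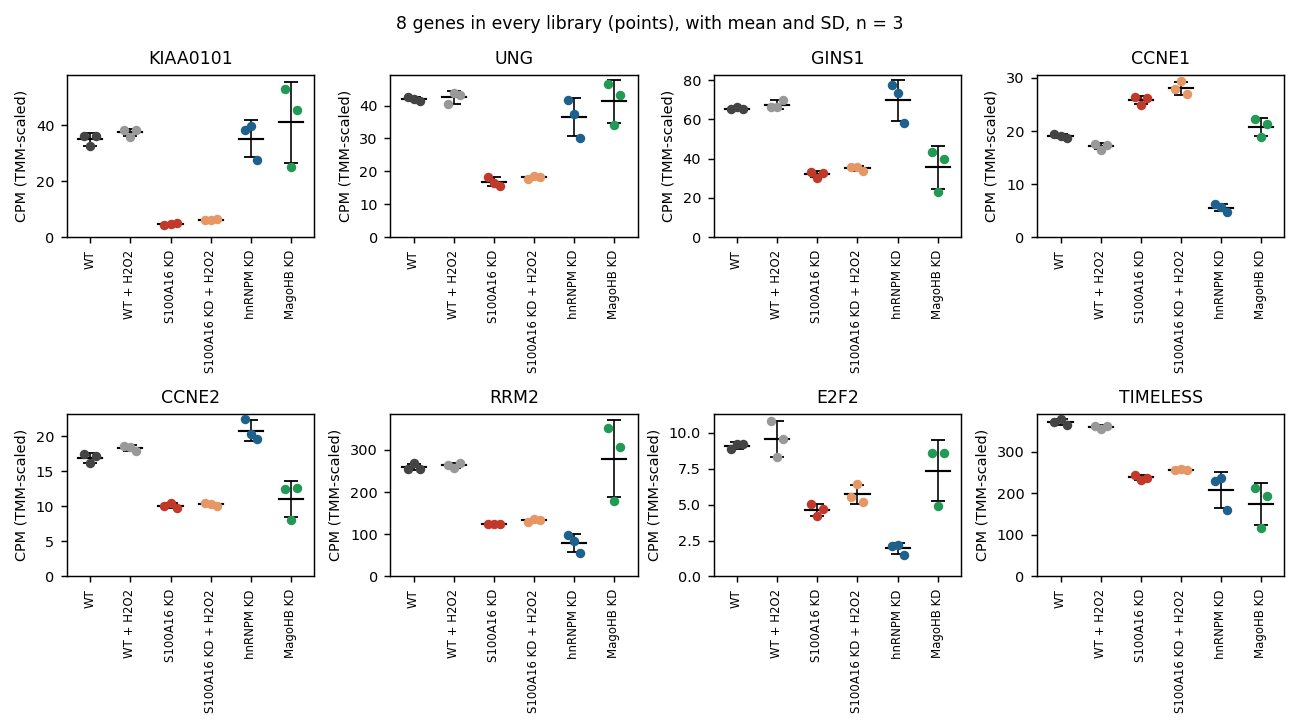
CPM of 8 members in every library (points) with the group mean and SD (n = 3), in 6 groups; each vertical axis starts at 0. KIAA0101 and UNG are lowest in the 6 S100A16 KD libraries, and CCNE1 is highest in those and low in the hnRNPM KD at 4.81 to 6.30 CPM.

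Direct comparisons between the KDs put these differences in order. They set KD means against each other and not against the shared WT mean, with spread and scaling still from all 18 libraries. Between the S100A16 and hnRNPM KDs, 14 members were lower and 7 higher in the S100A16 KD, against 24.2% and 24.6% of all genes, with a median log2 difference of -0.16. The lowest were KIAA0101, GINS1 and UNG, and the highest CCNE1, E2F2 and RFC4 (log2 difference 0.76). Between the S100A16 and MagoHB KDs, 34 were lower in the S100A16 KD, led by KIAA0101, UNG and RRM2, and CCNE1 and TIMELESS were higher, against 21.7% and 23.2% of all genes. Between the hnRNPM and MagoHB KDs, 24 were lower in the hnRNPM KD, led by E2F2 (-1.91), CCNE1 (-1.90) and RRM2 (-1.82), and GINS1 and CCNE2 were higher, against 22.2% and 22.3% of all genes. The counts of lower members moved to 33 (26.3% of all genes), 46 (24.1%) and 39 (23.4%) without the 3 libraries that stood apart, with 8 higher in the first (25.3%), and the last was 40 (21.8%) without MagoHB KD 2 alone. At 1.5-fold or more, 7 members were lower and 4 higher in the S100A16 than in the hnRNPM KD (11.8% and 15.6% of all genes). By the same size, 22 were lower in the S100A16 than in the MagoHB KD (10.6%, with 13.1% of genes but no member higher), and 14 were lower and 2 higher in the hnRNPM than in the MagoHB KD (12.8% and 11.3%).

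By these tests 11 members were lower in the S100A16 KD than in WT and in both other KDs, as were 9.58% of all genes: GINS4, ORC6, POLA1, POLD2, PCNA, KIAA0101, RFC2, RPA1, FEN1, UNG and CHAF1B. The count was 33 (12.5% of all genes) without the 3 libraries that stood apart. It was 14 (9.99%) without hnRNPM KD 3 alone and 20 (10.8%) without MagoHB KD 2 alone. In other fits that left out 1 library, some of the 11 lost a call. RPA1 lost that against the hnRNPM KD without S100A16 KD 1, 2 or 3 or hnRNPM KD 1 or 2 (adjusted p = 0.079 to 0.205). GINS4 lost it without S100A16 KD 1, 2 or 3 or hnRNPM KD 1, and PCNA without hnRNPM KD 1. GINS4 and CHAF1B lost their call against the MagoHB KD without MagoHB KD 1 or 3. Another 7 met the same test for the hnRNPM KD, beside 8.73% of all genes: CDC6, RFC4, RPA3, RRM2, TYMS, CCNE1 and E2F2. Without hnRNPM KD 3 only CCNE1, RFC4 and E2F2 met it (8.23% of all genes). Without the 3 libraries that stood apart those 7 and ORC1 did (9.4%). RRM2 lost its call against the S100A16 KD without S100A16 KD 2 or 3, as CDC6 did without S100A16 KD 1. No member met the test for the MagoHB KD with all libraries (6.97% of all genes), and TIMELESS did without the 3. In addition, 16 members were called lower than WT in each of the 3 untreated KDs, which share their WT libraries, beside 8.21% of all genes: MCM10, CDC45, GINS2, GINS4, POLA1, POLA2, POLD2, POLE2, PRIM1, PCNA, RFC3, TIMELESS, CHAF1A, CHAF1B, RRM1 and TK1. The count was 19 (8.76%) without the 3 libraries that stood apart. It was 14 without hnRNPM KD 3 (7.38%) and 14 without MagoHB KD 2 (7.9%).

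The S100A16 KD was also compared with WT under peroxide, by the means of 6 libraries other than those compared without it. Both comparisons took their spread and scaling from the fit of all 18 libraries. There 45 of 49 members fell and 1 rose, against 24.7% and 27.9% of all genes, with a median log2 fold change of -0.86 beside 0.06 over all genes. The 45 were the same as without peroxide, and the rise was again CCNE1. Falls of at least 1.5-fold numbered 38 (12.3% of all genes), and the rise of CCNE1 was also of that size (17.7%). KIAA0101 was at 38.2, 35.9 and 38.4 CPM in treated WT and 6.09, 6.11 and 6.64 in the treated KD, a fall to 16.7% (log2 fold change -2.58 ± 0.23, adjusted p = 3.64e-07). CCNE1 was at 17.5, 16.5 and 17.3 CPM in treated WT and 27.9, 29.4 and 26.9 in the treated KD (0.72 ± 0.08, adjusted p = 2.06e-07), again without overlap. GINS2, UNG and POLE2 fell to 40.3%, 42.8% and 43.4%, with log2 fold changes of -1.31, -1.23 and -1.21 beside -1.37, -1.31 and -1.24 without peroxide. With all libraries, MCM6, RPA2 and RPA3 were not called in either condition. Without the 3 libraries that stood apart, 48 fell and 1 rose in the treated pair (28.3% and 30.3% of all genes).

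**Figure D5:**
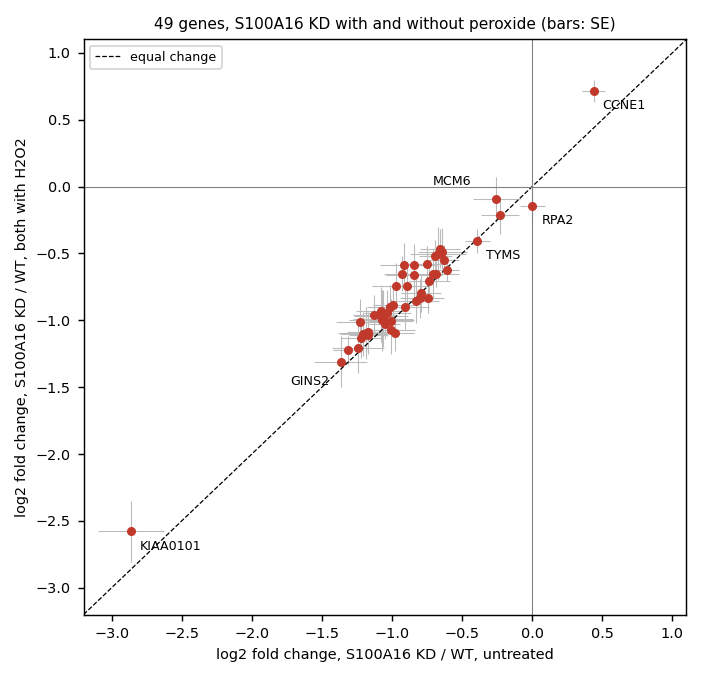
Log2 fold change of the S100A16 KD over WT for each of the 49 genes without peroxide (horizontal axis) and with it (vertical axis), with standard errors; the dashed line marks equal change. The genes lie along the line from KIAA0101 at -2.86 and -2.58 to CCNE1 at 0.44 and 0.72.

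In the fit of all 18 libraries peroxide called few genes, 33 higher (0.147%) and 17 lower (0.076%) in WT. In the S100A16 KD it called 0 higher (0.0%) and 3 lower (0.0134%). Other fits called more. With only the groups compared, 304 were higher and 251 lower in WT, and 471 higher and 330 lower in the S100A16 KD. Without the 3 libraries that stood apart, 213 were higher and 204 lower in WT, and 298 higher and 66 lower in the S100A16 KD. With all 18 libraries, none of the 49 was called in WT, where 1 (RPA2) had an unadjusted p under 0.05. DESeq2 also called 0, and the log2 fold changes ran from -0.20 (POLA1) to 0.20 (RPA2). RPA2 was at 32.9, 30.5 and 35.6 CPM in treated WT, above the untreated libraries without overlap (adjusted p = 0.723). None was called in the S100A16 KD, where 0 had an unadjusted p under 0.05 and DESeq2 called 0, while 45 of the 49 log2 fold changes were above 0 (52.1% of all genes), with a median of 0.10 and a highest value of 0.38 (KIAA0101). All 3 treated KD libraries lay above all 3 untreated ones for 22 members, beside 12.4% of all genes. The 95% intervals of the 49 changes by peroxide lay between -0.51 and 0.63 in WT and between -0.42 and 0.91 in the KD.

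The interaction, which asks whether the peroxide response differed between the KD and WT, called 0 of 49 (0.0179% of all genes higher and 0.076% lower). CCNE1 was the member with an unadjusted p under 0.05 (0.0242, adjusted p = 0.903; DESeq2 called 0). All 3 treated libraries of CCNE1 lay below the untreated ones in WT and above them in the S100A16 KD. A fit of only the groups compared, which estimated the spread from fewer libraries, called MCM3, GINS3, MCM5, CHAF1A and KIAA0101 higher with peroxide in the S100A16 KD (2.29% of all genes), at log2 fold changes of 0.17 to 0.37. That fit also called CHAF1A and POLA1 lower and RPA2 and PCNA higher in WT (1.27% and 1.54% of all genes), and MCM3 and CHAF1A in the interaction (0.455%). The fit without the 3 libraries that stood apart called POLA1 lower in WT (0.901% of all genes), MCM3, MCM5, GINS3 and CHAF1A higher in the S100A16 KD (1.32%), and MCM3 and CHAF1A in the interaction (0.437%).

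Related genes gave the setting. Of all genes, 24.8%, 23.8% and 22.3% were called lower in the S100A16, hnRNPM and MagoHB KDs. The shares called higher were 27.6%, 25.4% and 23.3%. Of 46 other replication genes, 38 fell and 1 rose in the S100A16 KD, 34 fell and 2 rose in the hnRNPM KD, and 20 fell and 1 rose in the MagoHB KD, with medians of -0.56, -0.49 and -0.33. RNASEH2B, a subunit of the enzyme that removes ribonucleotides from DNA, fell from 16.02 to 5.27 CPM in the S100A16 KD (log2 fold change -1.60, adjusted p = 2.56e-10). TOP1, the topoisomerase that relieves supercoils, rose in the S100A16 KD (0.29, adjusted p = 0.000243) and the hnRNPM KD (0.72, adjusted p = 1.39e-09). Of 31 mitosis genes, 29, 28 and 26 fell and 0 rose in the same order. AURKA, a mitotic kinase, fell from 72.7 to 13.6 CPM in the S100A16 KD (-2.42, adjusted p = 2.04e-07). Without the 3 libraries that stood apart, 42, 36 and 22 of the other replication genes fell and 1, 4 and 4 rose in that order of KDs. In that fit 31, 31 and 28 mitosis genes fell. The shares of all genes were then 27.2%, 25.2% and 22.7% lower and 28.2%, 25.7% and 22.0% higher.

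Of 17 E2F and pocket protein genes, 10 fell and 0 rose in the S100A16 KD, 9 fell and 2 rose in the hnRNPM KD, and 6 fell and 3 rose in the MagoHB KD. The all-gene shares given above stand beside these counts and those of the next lists. Several counts lie near them, among them the 3 of 12 histone genes that rose in the MagoHB KD (23.3% of all genes). E2F3 fell in the S100A16 KD from 30.8 to 13.9 CPM (-1.15, adjusted p = 4.8e-12) and rose in the hnRNPM KD to 35.0 CPM (0.18, adjusted p = 0.0191), and the KDs differed directly (-1.33, adjusted p = 2.11e-13). Of 16 tested genes for G1 cyclins, kinases and inhibitors (19 listed), 7 fell and 4 rose in the S100A16 KD, 7 fell and 2 rose in the hnRNPM KD, and 5 fell and 3 rose in the MagoHB KD. CDK6, the kinase partner of D cyclins, fell in all 3 KDs (-1.18, -1.72 and -1.84), and CCND1, which encodes cyclin D1, rose in all 3 (0.62, 0.65 and 0.99). Replication-dependent histone genes, whose mRNAs mostly lack poly(A) tails and are poorly caught by this library type, had 12 of 20 tested; 2 fell and 2 rose in the S100A16 KD, 1 fell and 5 rose in the hnRNPM KD, and 0 fell and 3 rose in the MagoHB KD. Without the 3 libraries that stood apart, the numbers that fell in the S100A16, hnRNPM and MagoHB KDs were 11, 9 and 5 for the E2F and pocket protein genes (0, 3 and 3 rose), 9, 8 and 6 for the G1 genes (5, 3 and 6 rose) and 2, 3 and 1 of 13 tested for the histone genes (3, 6 and 3 rose).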

How the data were processed

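Raw counts per gene were deposited by the authors for 18 libraries beside RPKM values, and every RPKM value above 0 equalled the count divided by gene length and library total within a relative tolerance of 0.001. The tools, per the submitters' processing notes, included HISAT2 2.2.1, StringTie 2.1.4, SAMtools 1.15.1, DESeq2 1.32.0 and FastQC 0.11.9, with the GRCh38 (hg38) build. The sources used here do not give the counting program, its annotation or its use of strand. Among counts from 1 to 19 only 18.6 to 22.0% were odd, so halved counts were tried as an alternative.

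The deposited counts were fitted with edgeR 4.0.16 (R 4.3.3, limma 3.58.1): filterByExpr, TMM scaling and the robust quasi-likelihood F test with 1 mean for each of 6 groups over all 18 libraries. Benjamini-Hochberg adjustment ran over the 22382 genes tested in each of 10 comparisons, and an adjusted p under 0.05 was a call. All adjusted p-values in the report come from this test unless DESeq2 (1.42.0, an alternative) is named. CPM are counts scaled to the TMM library size, SE are those of the fit, and levels between genes were compared in RPKM alone. The steps were tested on simulated data.

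The members and the lists of related genes were chosen with earlier results of these data known, so their direction is no independent evidence. Values in every library were set out by rule for the 4 lowest and 4 highest called members of each comparison of a KD with WT and the 3 lowest and 3 highest of each comparison between KDs, with a mean of at least 5 CPM. MCM6, MCM7, CDC6, PRIM1, PCNA, RPA2 and RPA3 were added after their values were seen, where the rule did not name them. Related genes were named by smallest adjusted p, 2 in each direction and list. Exon sharing was measured on the exon coordinates that the authors deposited with the counts, and promoters came from RefSeq.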

Additional observations from a re-analysis of the deposited data

How the results depend on the processing

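Counts in this section stand without the share of all genes, so they show only how the calls of the members depend on the fit. The counts of members called lower in the S100A16 KD stayed at 45 in each fit that left out 1 library without peroxide and at 43 with peroxide. Those for the hnRNPM KD ran from 34 to 42. No called member changed sign under DESeq2 or scaling by total counts, and of 455 alternative values of named members 442 kept their call, 13 lost it and none reversed; the losses were CCNE2 in the hnRNPM KD (5) and TIMELESS between the S100A16 and MagoHB KDs (8). Scaling by total counts moved the median of all genes by 0.24, 0.18, 0.11 and 0.21 in the comparisons of the S100A16 KD, treated S100A16 KD, hnRNPM KD and MagoHB KD with WT, and by 0.12 between the S100A16 and hnRNPM KDs.

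Under total counts, 2 members were higher in the S100A16 KD (CCNE1 and RPA2), and in the MagoHB KD 12 were lower and 1 higher. With only the groups compared in the fit, 11 were lower in the MagoHB KD, 13 were lower in the hnRNPM KD than in the MagoHB KD and 1 was higher in the S100A16 KD than in the MagoHB KD. In that fit peroxide called 2 lower and 2 higher in WT, 5 higher in the S100A16 KD and 2 in the interaction. With no filter beyond 1 count, 1 was higher in the S100A16 KD than in the MagoHB KD.

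Requiring a 1.5-fold change left 0 higher in the S100A16 KD and 0 higher in the hnRNPM KD, 11 lower in the MagoHB KD, 7 lower and 4 higher between the S100A16 and hnRNPM KDs, 22 lower and 0 higher between the S100A16 and MagoHB KDs, and 14 lower between the hnRNPM and MagoHB KDs. Leaving out 1 library gave 0 to 1 higher in the hnRNPM KD, 15 to 31 lower and 0 to 3 higher in the MagoHB KD, 3 to 7 higher between the S100A16 and hnRNPM KDs, 26 to 45 lower and 1 to 2 higher between the S100A16 and MagoHB KDs, and 16 to 40 lower between the hnRNPM and MagoHB KDs.

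Without the 3 libraries that stood apart, an alternative chosen after seeing the data, 4 were higher in the hnRNPM KD, 8 were higher in the MagoHB KD, 33 were lower in the S100A16 than in the hnRNPM KD and 39 were lower in the hnRNPM than in the MagoHB KD. That fit called 1 lower with peroxide in WT, 4 higher with peroxide in the S100A16 KD and 2 in the interaction. With the replicate number as a block, 1 member was higher in the S100A16 KD than in the MagoHB KD, and 45, 44, 39 and 19 were lower in the comparisons with WT. Whether the numbers pair the samples is not settled here. Of 45 same-numbered pairs of deviations, 1 correlated over 0.1, and 10 of 18 libraries correlated best with their own number. The count to be met without pairing was not worked out, and each library had fewer same-numbered than other-numbered libraries to match.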
